A study of Mus musculus with 6 samples.

Results

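The 36 genes described here are enzymes, transporters and regulators of glycolysis and components and targets of the hypoxia-inducible factor (HIF) system. They were taken by gene name from a table of 11808 gene identifiers, and all 36 were listed there; 23 are glycolytic and 13 belong to the HIF system or are other HIF targets. RNA levels were measured in 6 libraries of mouse vascular smooth muscle cells (VSMCs), the contractile cells of the artery wall, grown as primary cultures. The comparison asks how the level of each gene differed after knockdown of Sirt7, which encodes a nuclear member of the NAD-dependent sirtuin deacylase family.

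The cells came from male C57BL/6 mice, 6 weeks old, by collagenase digestion, and were kept in normal growth medium (alpha-MEM with serum). In 3 libraries the cells had been transfected with siRNA against Sirt7 (siSirt7), and the labels give their genotype as a Sirt7 knockdown. In the other 3 libraries wild-type cells had been transfected with a scrambled siRNA (siScrambled). Both siRNAs were used at 20 nM, and RNA was taken after 48 h, so every cell in the comparison had been through the same transfection. The number of siRNAs per target, their sequences and the passage of the cells are not in the labels. Whether the replicate libraries came from separate cultures or isolations is not stated in the labels either, and p-values then cover only the variation seen among these 6 libraries, which could be technical.

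Glycolysis converts glucose to pyruvate in a chain of cytosolic reactions, and vascular smooth muscle is known for turning much of that pyruvate into lactate even when oxygen is present. HIF is a pair of proteins, an oxygen-regulated alpha subunit and a constant partner, Arnt. In the presence of oxygen the prolyl hydroxylases (Egln genes) mark the alpha subunit, Vhl binds it and it is degraded; without oxygen it persists and activates genes that include most glycolytic enzymes.

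Sirt7 itself had 0.96, 1.25 and 0.36 FPKM (fragments scaled to transcript length and to the mapped fragments of the library, summed over the transcripts of a gene) in siSirt7 libraries 1 to 3, against 4.35, 3.55 and 4.48 FPKM in siScrambled libraries 1 to 3. The groups did not overlap, and the mean was 4.82-fold lower with siSirt7 (log2 fold change -1.49 ± 0.20 SE, limma adjusted p = 0.00388). Fold changes on the log2 scale are of FPKM + 1 throughout, siSirt7 over siScrambled, which understates the change of low genes. A gene was called when the limma test, adjusted by the Benjamini-Hochberg method over the 10854 genes that averaged 1 FPKM or more, gave an adjusted p under 0.05. In RNA from whole cultures, fewer cells of a type and less RNA per cell cannot be told apart.

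Library totals ran between 321944 and 333683 FPKM with siSirt7 and between 323114 and 325279 FPKM with siScrambled, and the read depth behind them is unknown. Of 7 smooth muscle markers, 6 were listed, Acta2 and Myh11 among them, and Myocd was not. Their summed level was 2294 to 2498 FPKM with siSirt7 and 2648 to 2672 FPKM with siScrambled, and Tagln, Cnn1 and Smtn passed the test, lower with siSirt7. None of 5 endothelial and none of 3 erythroid markers was listed. The 3 of 7 macrophage and leukocyte markers that were listed summed to 20.2 to 22.8 FPKM with siSirt7 and 18.1 to 21.2 FPKM with siScrambled. Adventitial fibroblast markers, all 5 listed, summed to 429.4 to 461.2 FPKM with siSirt7 and 413.8 to 427.4 FPKM with siScrambled. They did not move together: Lum passed the test, higher with siSirt7 (log2 fold change 0.18), and Pdgfra and Dpt passed it, lower (-0.40 and -0.24). The mesothelial sum (4 of 4 listed) was 37.2 to 38.9 FPKM with siSirt7 and 41.8 to 44.2 FPKM with siScrambled, and that of Schwann cells (2 of 3 listed) 1.89 to 2.37 FPKM with siSirt7 and 2.76 to 4.13 FPKM with siScrambled. The adipocyte sum (1 of 3 listed) was 27.2 to 31.6 FPKM with siSirt7 and 29.6 to 31.6 FPKM with siScrambled. Tnnt2, the only listed one of 3 cardiac and skeletal muscle markers, had 14.9 to 16.9 FPKM with siSirt7 and 29.3 to 32.5 FPKM with siScrambled. It passed the test, lower with siSirt7 (log2 fold change -0.93). So did Upk3b among the mesothelial and Sox10 among the Schwann cell markers (-0.20 and -0.37). The part of these shifts in the results that follow was not tested.

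Of the 36 genes, 34 passed the filter on low values; Pfkfb4 and Aldoc, with means under 1 FPKM, did not. After Sirt7 knockdown 13 of the 34 rose and 2 fell, and 19 were not called. That is 38.2% higher and 5.88% lower, against 12.7% higher and 12.5% lower among all genes tested (25.2% in either direction). The 3 siSirt7 libraries lay above all 3 siScrambled libraries for 16 of the 34 and below them for 3, while the groups of 43.9% of all tested genes did not overlap (21.8% above and 22.1% below). The median log2 fold change of the 34 was 0.17, and that of all tested genes -0.0046.

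**Figure D1:**
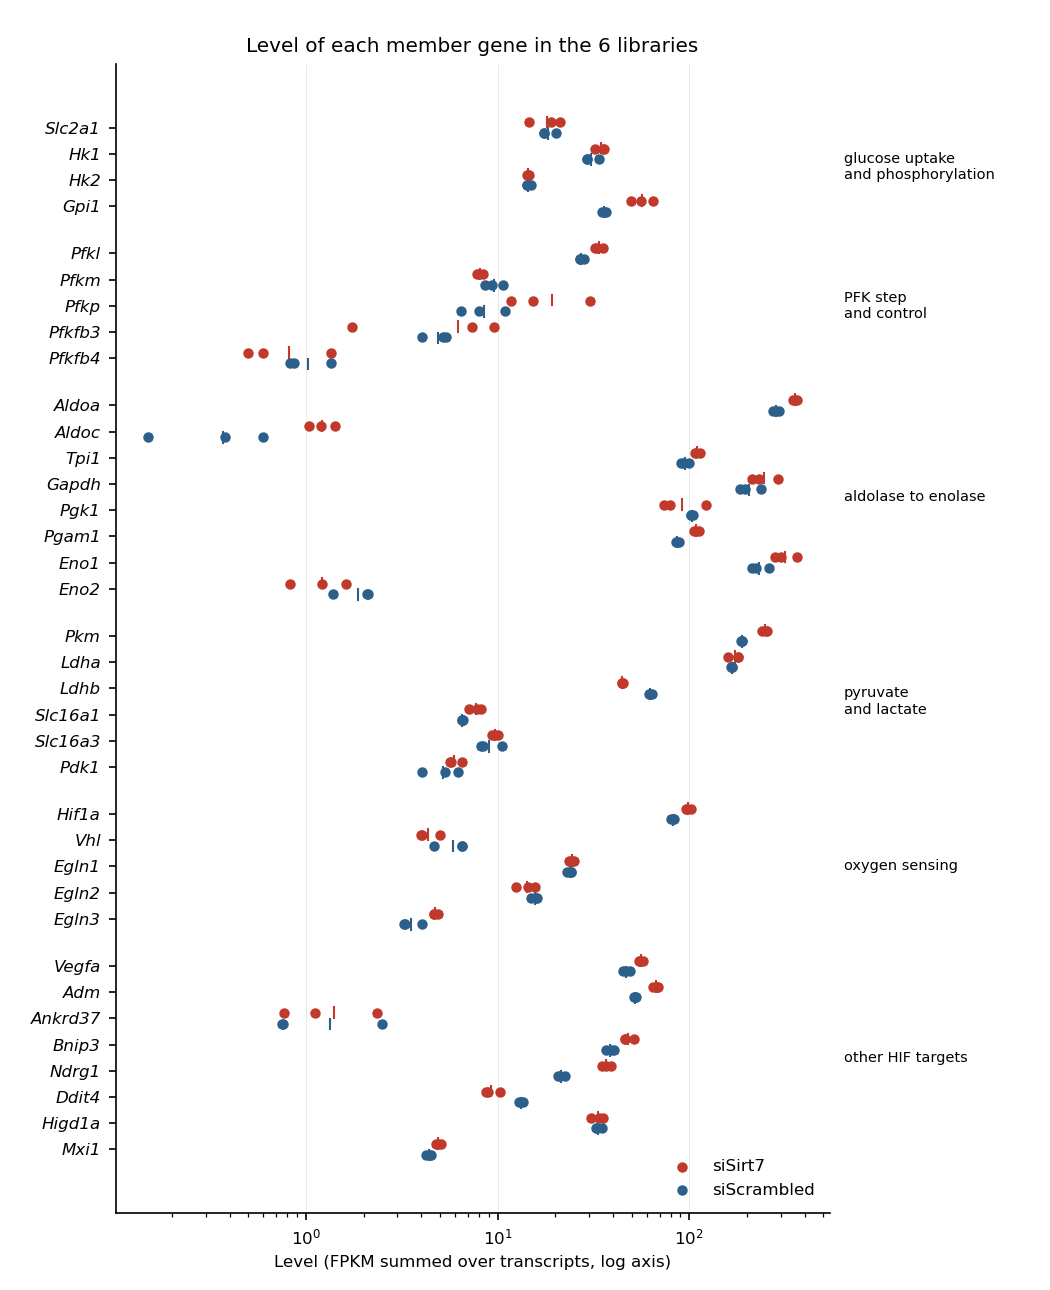
Level of each of the 36 genes in each library on a log axis (FPKM summed over transcripts), ordered by role, siSirt7 above siScrambled for each gene, with points for libraries and vertical ticks for group means. Gpi1, Aldoa, Pgam1, Pkm, Hif1a, Adm and Ndrg1 have their siSirt7 points to the right of all siScrambled points, Ldhb and Ddit4 to the left, and Pfkp, Pfkfb3, Pgk1 and Ankrd37 spread widely within a group.

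Entry of glucose into the pathway showed 1 called gene among 4, a share like the 25.2% of all tested genes called in either direction. Gpi1, which interconverts glucose 6-phosphate and fructose 6-phosphate, had 56.2, 49.8 and 64.8 FPKM with siSirt7, against 35.1, 36.7 and 35.8 FPKM with siScrambled. Every siSirt7 library was above every siScrambled library, library 3 the highest. The mean was 1.59-fold higher with siSirt7 (57.0 ± 7.55 FPKM with siSirt7 and 35.9 ± 0.80 FPKM with siScrambled, SD, n = 3 each; log2 fold change 0.64 ± 0.09 SE, limma adjusted p = 0.00498), and among the glycolytic members called this was the greatest difference. In siSirt7 library 3, 19.4 FPKM of the sum was assigned to the transcript Gpi1-205, against 0.43 to 1.06 FPKM in the other 5 libraries of both groups. The main transcript Gpi1-201 had 54.3, 48.0 and 43.5 FPKM with siSirt7 and 33.3, 34.7 and 34.7 FPKM with siScrambled, and was called higher by itself (adjusted p = 0.027 over 17414 single transcripts, limma). The gene lies on the minus strand at chr7:34201330-34230336 (GRCm38, as for all positions given here).

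Hk1, the widely expressed hexokinase that traps glucose by phosphorylation, had 32.1, 36 and 35.6 FPKM with siSirt7 and 29.4, 33.8 and 29.3 FPKM with siScrambled. These groups overlapped, and the test was not passed (log2 fold change 0.16, 95% interval -0.02 to 0.34, adjusted p = 0.171). Hk2, the HIF-inducible hexokinase, had similar values in all libraries, at 14.6, 14.2 and 14.4 FPKM with siSirt7 and 14.3, 15.0 and 14.2 FPKM with siScrambled (log2 fold change -0.01, interval -0.12 to 0.11). Slc2a1, the glucose transporter of most cell types and a classical HIF target, averaged 18.2 ± 3.30 FPKM with siSirt7 and 18.4 ± 1.65 FPKM with siScrambled (log2 fold change -0.03, interval -0.36 to 0.31). For Slc2a1 and Hk2 the sign of the difference turned when single libraries were left out.

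At the phosphofructokinase step, which commits sugar to glycolysis, the liver-type subunit Pfkl rose. Pfkl had 32.3, 33.0 and 35.7 FPKM with siSirt7, against 27, 28.2 and 27 FPKM with siScrambled. The groups did not overlap, and the mean was 1.23-fold higher with siSirt7 (log2 fold change 0.29 ± 0.05 SE, limma adjusted p = 0.00959; minus strand of chr10:77986947-78009807). The platelet-type subunit Pfkp had 11.8, 15.4 and 30.3 FPKM with siSirt7 and 11, 6.45 and 8.0 FPKM with siScrambled. Its groups did not overlap either, but siSirt7 library 3 stood far above the others of its group, and the difference was not called (log2 fold change 1.01 ± 0.35 SE, interval 0.15 to 1.87, adjusted p = 0.0873). Of the 30.3 FPKM in that library 26 FPKM was assigned to Pfkp-201, a transcript at 0.04 and 3.84 FPKM in the other siSirt7 libraries and at 0.00 to 0.41 FPKM with siScrambled. The muscle-type subunit Pfkm was lower in every siSirt7 library, at 7.99, 8.40 and 7.85 FPKM against 8.56, 9.39 and 10.7 FPKM with siScrambled, without passing the test (log2 fold change -0.21, interval -0.42 to 0.00, adjusted p = 0.128).

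Summed over Pfkl, Pfkm and Pfkp, the phosphofructokinase level was 52.1, 56.8 and 73.8 FPKM with siSirt7, against 46.5, 44.0 and 45.7 FPKM with siScrambled. Pfkm made up 15.3, 14.8 and 10.6% of that sum with siSirt7 and 18.4, 21.3 and 23.4% with siScrambled, so that no siSirt7 library reached a siScrambled one. An exact two-sided permutation test of 3 against 3 libraries cannot give a p below 0.1, which is the p here (0.254 adjusted over the 33 shares compared). Pfkfb3, which makes the activator fructose 2,6-bisphosphate, scattered widely, with 9.55, 1.75 and 7.32 FPKM with siSirt7 and 5.18, 5.40 and 4.02 FPKM with siScrambled (log2 fold change 0.09, interval -1.11 to 1.30). Without siSirt7 library 2, whose value was the lowest of the 6, Pfkfb3 was called higher (log2 fold change 0.68, adjusted p = 0.0429), and without siSirt7 library 1 or 3 or siScrambled library 3 the sign turned. Its relative Pfkfb4, which was not tested, had 0.60, 1.36 and 0.50 FPKM with siSirt7 and 0.83, 1.35 and 0.87 FPKM with siScrambled.

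From aldolase to enolase, 4 of 7 tested genes rose (57.1%, against 12.7% of all genes tested) and none fell (against 12.5%). Aldoa, the muscle-type aldolase that splits fructose bisphosphate into trioses, had the highest mean level of the 36 genes, with 365.3, 358.1 and 350.0 FPKM with siSirt7, against 275.2, 295.3 and 282.7 FPKM with siScrambled. The lowest siSirt7 library lay above the highest siScrambled library, and the mean was 1.26-fold higher with siSirt7 (log2 fold change 0.33 ± 0.04 SE, limma adjusted p = 0.00179; minus strand of chr7:126795234-126800751). Its brain-type relative Aldoc stood at 1.42, 1.04 and 1.20 FPKM with siSirt7 and 0.38, 0.15 and 0.60 FPKM with siScrambled. Aldoc was below the filter. Its siScrambled mean, 0.37 FPKM, is under the 0.5 FPKM that every listed transcript reaches in at least 1 group. Aldoc was thus listed only through its siSirt7 values. A limma fit without the filter called it higher (log2 fold change 0.70, adjusted p = 0.0194), but a gene listed in that way could hardly be called lower. It made up under 0.4% of the aldolase sum in any library (0.289 to 0.386% with siSirt7 and 0.0506 to 0.211% with siScrambled).

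Tpi1, the isomerase of the triose phosphates, had 113.9, 107.6 and 108.8 FPKM with siSirt7, against 94.5, 99.4 and 90.1 FPKM with siScrambled. No value of one group reached the other (1.16-fold higher with siSirt7, log2 fold change 0.22 ± 0.05 SE, limma adjusted p = 0.018; minus strand of chr6:124810586-124814296). Leaving out siScrambled library 1 or 3 or siSirt7 library 1 moved the adjusted p of Tpi1 to 0.0586, 0.0512 and 0.0525, past the threshold. Pgam1, the phosphoglycerate mutase of most tissues, had 108.3, 111.9 and 105.9 FPKM with siSirt7, against 85.2, 88.8 and 86.5 FPKM with siScrambled. The siSirt7 libraries were all above the siScrambled ones, 1.25-fold in the mean (log2 fold change 0.32 ± 0.03 SE, limma adjusted p = 0.00179; plus strand of chr19:41911871-41918664), and the call held in every alternative run.

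Eno1, the enolase of most tissues, had 363.9, 302.6 and 280.4 FPKM with siSirt7, against 261.5, 222.3 and 213.5 FPKM with siScrambled. The groups did not overlap, although library 1 was the highest in each group by a wide margin (1.36-fold higher with siSirt7, log2 fold change 0.44 ± 0.12 SE, limma adjusted p = 0.0415; plus strand of chr4:150236721-150248879). The Eno1 call was lost without siScrambled library 2 or 3 (adjusted p = 0.116 for each), without siSirt7 library 1 (0.0743) or 2 (0.086), with the trend and robust options of limma off (0.0545), and for its most abundant transcript by itself (0.34). In library 1 of each group more of the sum was assigned to Eno1-201 (204.2 FPKM with siSirt7 and 144.5 FPKM with siScrambled) than in the other libraries of that group (57.2 and 61.1 FPKM with siSirt7, 44.4 and 45.5 FPKM with siScrambled). Eno1b, a gene closely similar to Eno1, had 31.8, 31.2 and 29.1 FPKM with siSirt7 and 23.1, 22.5 and 23.1 FPKM with siScrambled (log2 fold change 0.41, adjusted p = 0.00242), and reads that fit both genes could have been split between them.

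The other genes of this stretch were not called. Gapdh, the glyceraldehyde phosphate dehydrogenase often used as a reference transcript, had 231.6, 291.0 and 213.1 FPKM with siSirt7 and 236.1, 184.0 and 195.2 FPKM with siScrambled (log2 fold change 0.25, interval -0.09 to 0.59). Many processed copies of Gapdh exist in the mouse genome, so the sharing of its reads is uncertain. Pgk1, the phosphoglycerate kinase and a standard HIF target, had 121.7, 79.7 and 74.1 FPKM with siSirt7, against a narrow 101.8, 104.1 and 102.5 FPKM with siScrambled. siSirt7 library 1 was the highest of the 6 for Pgk1 and the other siSirt7 libraries were the lowest (log2 fold change -0.20, interval -0.63 to 0.24); without library 1 Pgk1 was called lower (log2 fold change -0.41, adjusted p = 0.00508). Eno2, the neuronal enolase, was near the filter, with 0.83 to 1.61 FPKM with siSirt7 and 1.38 to 2.11 FPKM with siScrambled (log2 fold change -0.37, adjusted p = 0.183).

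Pyruvate kinase (Pkm), which forms pyruvate and ATP, had 251.0, 254.2 and 241.1 FPKM with siSirt7, against 189.1, 186.7 and 188.1 FPKM with siScrambled. The gap between the groups was far larger than the spread within them, with a mean 1.32-fold higher with siSirt7 (248.7 ± 6.82 FPKM with siSirt7 and 188.0 ± 1.20 FPKM with siScrambled, SD, n = 3 each; log2 fold change 0.40 ± 0.03 SE, limma adjusted p = 0.000508; plus strand of chr9:59656368-59679375). The gene yields alternative enzymes by using 1 of a pair of neighbouring exons, exon 9 in each transcript here, known as the choice between the M1 and M2 forms. The upstream exon is in Pkm-202 (M1), and the downstream exon is in Pkm-201 (M2). Each exon is 167 bases long and 103 of the 167 positions (61.7%) are the same. The first 30 bases of each are shown because they let the forms be told apart; capitals mark positions that differ, on the plus strand at chr9:59675029-59675058 for Pkm-202 and chr9:59675568-59675597 for Pkm-201.
Pkm-202: atAgcTcgGgaggcTgaggcAgccatGtTc
Pkm-201: atTgcCcgAgaggcAgaggcTgccatCtAc

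Pkm-202 had 150.3, 142.9 and 130.9 FPKM with siSirt7, against 96.7, 102.7 and 92.1 FPKM with siScrambled. These values did not overlap, and the transcript was called higher (log2 fold change 0.54 ± 0.07 SE, limma adjusted p = 0.0106). Pkm-201 had 96.6, 107.8 and 105.9 FPKM with siSirt7, against 88.5, 80.8 and 92 FPKM with siScrambled. Every siSirt7 library was again the higher, but the test over single transcripts was not passed (log2 fold change 0.25, adjusted p = 0.0951). As a share of all listed Pkm transcripts, Pkm-202 was 59.9, 56.2 and 54.3% with siSirt7 and 51.1, 55.0 and 49.0% with siScrambled. These shares overlapped (exact two-sided permutation p = 0.2), so a change in the balance of the forms was not shown.

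The lactate dehydrogenase subunits parted. Ldhb, the heart-type subunit, had 44.6, 44.9 and 44.5 FPKM with siSirt7, against 62.1, 61.9 and 64.3 FPKM with siScrambled. The siSirt7 libraries were all lower, by 28.9% of the siScrambled mean in the mean (log2 fold change -0.48 ± 0.03 SE, limma adjusted p = 0.000377; minus strand of chr6:142490249-142507957), and Ldhb was the only glycolytic member that fell. Ldha, the muscle-type subunit and a HIF target, had 179.4, 178.9 and 160.3 FPKM with siSirt7 and 167.3, 164.8 and 167.3 FPKM with siScrambled, with overlap (log2 fold change 0.05, interval -0.07 to 0.17). Ldha was called higher without siSirt7 library 3 (log2 fold change 0.11, adjusted p = 0.043), and its sign turned with quantile normalization. Ldhb made up 19.9, 20.1 and 21.7% of the sum of both subunits with siSirt7, against 27.1, 27.3 and 27.8% with siScrambled. The shares did not overlap (exact two-sided permutation p = 0.1, the smallest possible, 0.254 adjusted over 33 shares), while the sum averaged 217.5 ± 11 FPKM with siSirt7 and 229.2 ± 2.47 FPKM with siScrambled.

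The lactate exporters and the mitochondrial gatekeeper were not called. Slc16a1, a widely expressed monocarboxylate transporter, had 7.77, 8.24 and 7.07 FPKM with siSirt7 and 6.61, 6.53 and 6.50 FPKM with siScrambled, without overlap but above the threshold (log2 fold change 0.20, adjusted p = 0.0845). Slc16a3, the transporter typical of glycolytic cells, averaged 9.72 ± 0.31 FPKM with siSirt7 and 9.04 ± 1.30 FPKM with siScrambled (log2 fold change 0.10). Pdk1, the HIF-induced kinase that inactivates pyruvate dehydrogenase, averaged 5.96 ± 0.48 FPKM with siSirt7 and 5.17 ± 1.09 FPKM with siScrambled (log2 fold change 0.19, adjusted p = 0.386).

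Over the glycolytic members, 7 of the 21 tested rose (33.3%, against 12.7% of all genes tested) and 1 fell (4.76%, against 12.5%), and their median on the log2 scale was 0.19. The called risers lay between 0.22 and 0.64. Summed, the 23 members had 1991, 1930 and 1819 FPKM with siSirt7, against 1648, 1584 and 1560 FPKM with siScrambled, a mean 1.20-fold higher with siSirt7. The 15 genes for the steps from hexokinase to pyruvate kinase summed to 1713, 1664 and 1565 FPKM with siSirt7 and 1371, 1312 and 1286 FPKM with siScrambled. In these libraries that was 0.486 to 0.513% of the whole FPKM total with siSirt7 and 0.395 to 0.424% with siScrambled.

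**Figure D2:**
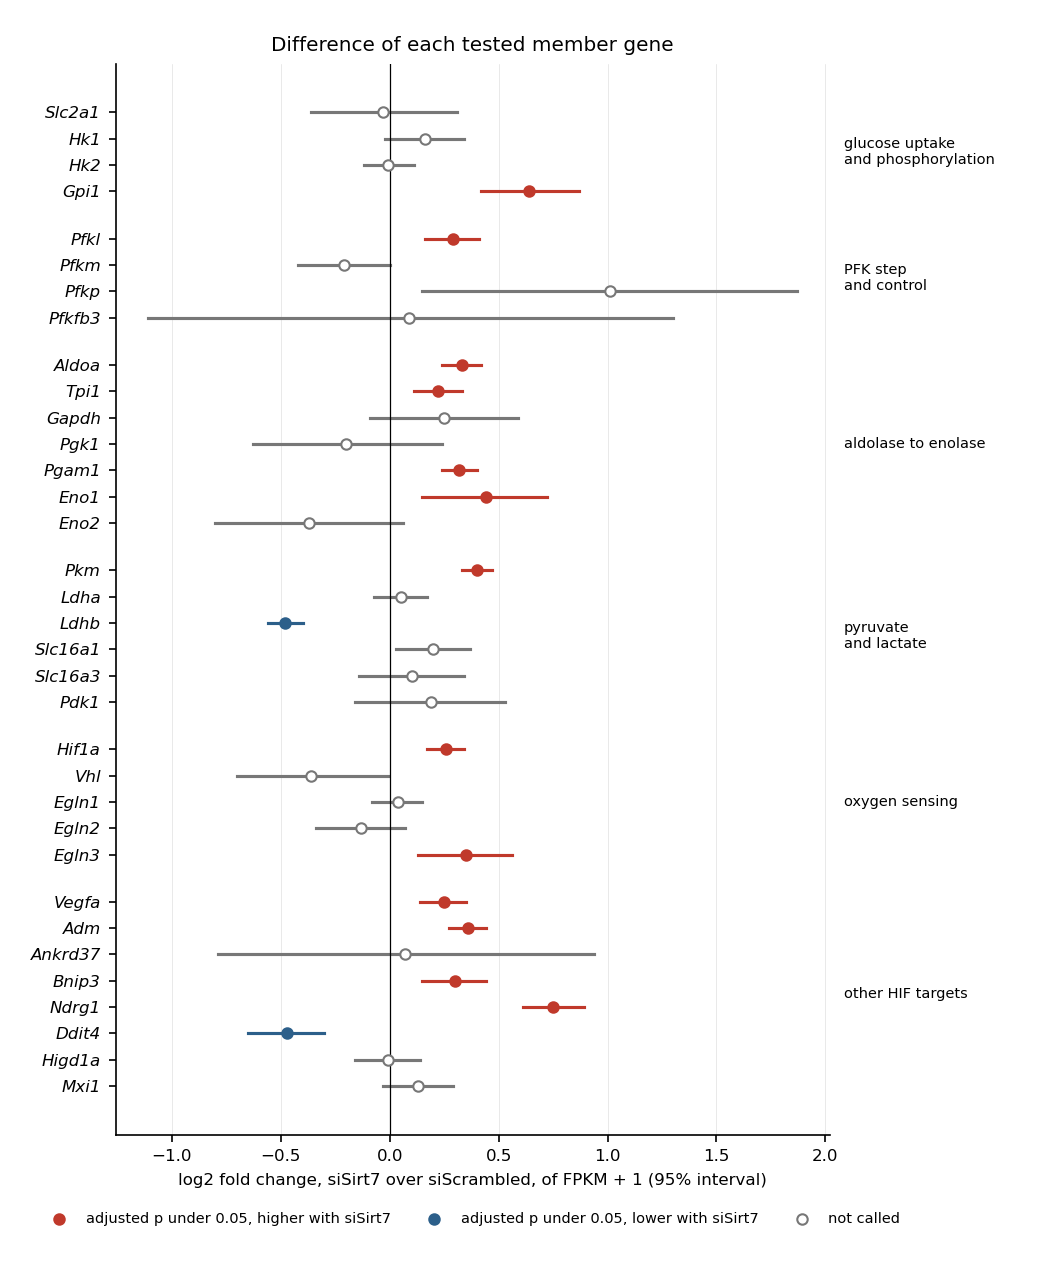
Log2 fold change (siSirt7 over siScrambled, FPKM + 1) of each of the 34 tested genes with its 95% interval from limma, in filled points where the adjusted p is under 0.05. The 13 risers span 0.22 (Tpi1) to 0.75 (Ndrg1), Ldhb and Ddit4 stand at -0.48 and -0.47, and the widest intervals belong to Pfkfb3, Ankrd37 and Pfkp.

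In the oxygen-sensing group Hif1a and Egln3 rose. Hif1a, the alpha subunit that hydroxylation controls at the protein level, had 96.9, 96.8 and 101.7 FPKM with siSirt7, against 83.5, 82.8 and 80.4 FPKM with siScrambled. The groups did not overlap, and the mean was 1.20-fold higher with siSirt7 (log2 fold change 0.26 ± 0.03 SE, limma adjusted p = 0.00375; plus strand of chr12:73901375-73947530). Its main transcript Hif1a-201 was called higher by itself (70.6, 68.2 and 72.6 FPKM with siSirt7, 58.6, 60.7 and 59.6 FPKM with siScrambled, adjusted p = 0.0168). The shares of the 3 listed Hif1a transcripts overlapped between the groups. These are RNA levels, and the amount of the protein was not measured.

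Egln3, the prolyl hydroxylase that is itself a HIF target, had 4.64, 4.90 and 4.67 FPKM with siSirt7, against 3.27, 4.03 and 3.28 FPKM with siScrambled. The groups were apart (1.34-fold higher with siSirt7, log2 fold change 0.35 ± 0.09 SE, limma adjusted p = 0.037; minus strand of chr12:54178981-54203860). The Egln3 call was lost when siSirt7 library 1, 2 or 3 was left out (adjusted p = 0.0788, 0.103 and 0.0826), when siScrambled library 1 or 3 was (0.107 and 0.106), and with the replicate block (0.0631). Its only listed transcript has the same values, and was not called when tested among the 17414 single transcripts (limma adjusted p = 0.123). Egln3 made up 10.9, 10.9 and 11% of the summed prolyl hydroxylases with siSirt7, against 7.52, 9.12 and 7.97% with siScrambled (exact two-sided permutation p = 0.1, 0.254 adjusted over 33 shares). The sum over the 3 hydroxylases was almost level, at 43.3 ± 1.52 FPKM with siSirt7 and 42.9 ± 1.57 FPKM with siScrambled.

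Egln1, the main oxygen sensor of most cells, had 23.5, 24.6 and 25.2 FPKM with siSirt7 and 24.1, 24.3 and 22.9 FPKM with siScrambled (log2 fold change 0.04, interval -0.08 to 0.15). Egln2, a further hydroxylase of the family, averaged 14.2 ± 1.58 FPKM with siSirt7 and 15.6 ± 0.60 FPKM with siScrambled (log2 fold change -0.13, adjusted p = 0.307). Vhl, the recognition subunit of the ubiquitin ligase, had 4.04, 4.01 and 5.03 FPKM with siSirt7 and 6.49, 4.65 and 6.54 FPKM with siScrambled. The groups overlapped through siScrambled library 2 (log2 fold change -0.36, interval -0.70 to -0.01, adjusted p = 0.124), and without that library Vhl was called lower (-0.49, adjusted p = 0.0407).

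Among 15 tested HIF system genes outside the 36, 1 rose and 2 fell, which is 20.0% against 25.2% of all genes. The largest change was in Epas1, the second HIF alpha subunit, with 6.69, 6.94 and 7.34 FPKM with siSirt7 and 11.1, 10.8 and 11.9 FPKM with siScrambled. It fell without overlap (1.61-fold lower with siSirt7, log2 fold change -0.62 ± 0.07 SE, limma adjusted p = 0.00171), opposite in sign to Hif1a. Ep300, the histone acetyltransferase that HIF recruits, averaged 7.07 ± 0.18 FPKM with siSirt7 and 9.65 ± 0.24 FPKM with siScrambled (log2 fold change -0.40, adjusted p = 0.00418). Os9, a lectin of the endoplasmic reticulum that has been described as a HIF partner, averaged 87.1 ± 3.77 FPKM with siSirt7 and 76.4 ± 0.58 FPKM with siScrambled (log2 fold change 0.19, adjusted p = 0.0178). The Os9 call was lost with quantile normalization (adjusted p = 0.0673), with the replicate block (0.0562), without siSirt7 library 1 (0.0539), without siScrambled library 1, 2 or 3 (0.0607, 0.0535 and 0.0595) and for its most abundant transcript (0.349). Arnt, the constant partner, had 13.5, 15.3 and 15.7 FPKM with siSirt7 and 13.7, 13.9 and 18.3 FPKM with siScrambled (log2 fold change -0.04), and Hif1an, the asparagine hydroxylase, averaged 5.86 FPKM with siSirt7 and 5.87 FPKM with siScrambled.

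**Figure D3:**
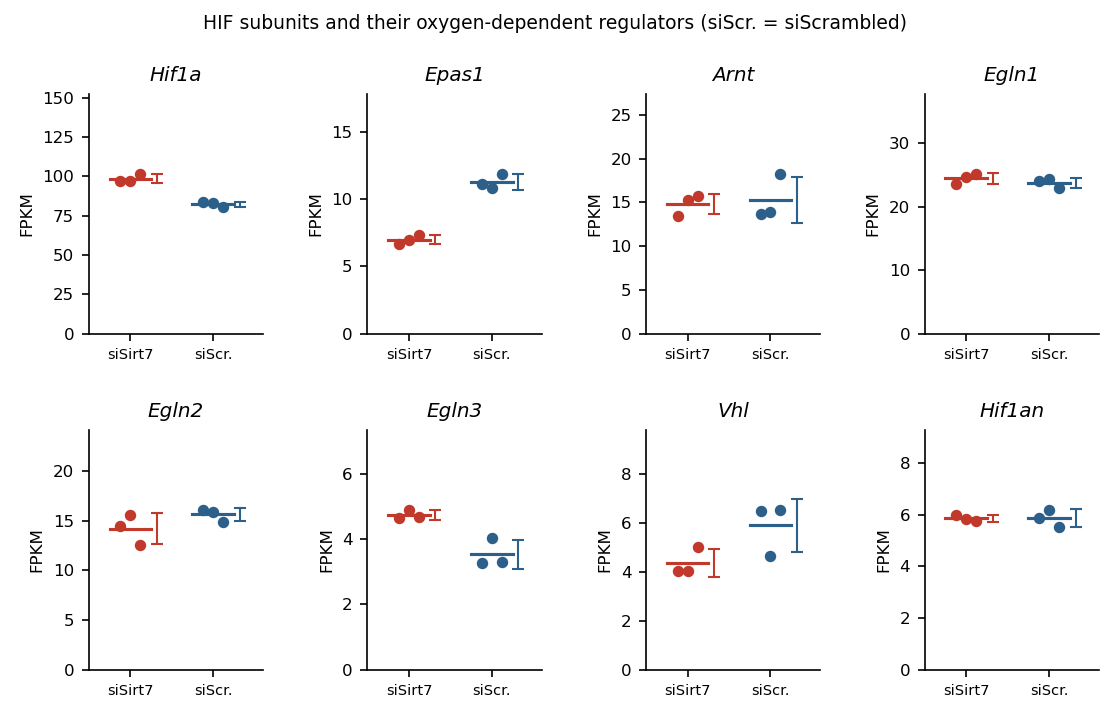
FPKM of the HIF alpha subunits Hif1a and Epas1, their partner Arnt, the hydroxylases Egln1, Egln2, Egln3 and Hif1an, and Vhl in each library, with points for libraries, horizontal lines for means and bars for SD (n = 3 each). Hif1a and Egln3 lie higher and Epas1 lower in all 3 siSirt7 libraries, and the remaining panels overlap.

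Among the other HIF targets Ndrg1 differed most. Ndrg1, a stress-responsive cytoplasmic protein whose RNA is a common hypoxia marker, had 36.9, 34.9 and 39.2 FPKM with siSirt7, against 20.8, 22.6 and 21.1 FPKM with siScrambled. The groups were far apart, 1.72-fold in the mean (37.0 ± 2.15 FPKM with siSirt7 and 21.5 ± 0.93 FPKM with siScrambled, SD, n = 3 each; log2 fold change 0.75 ± 0.06 SE, limma adjusted p = 0.000559; minus strand of chr15:66929321-66969640). Adm, which encodes the vasodilator peptide adrenomedullin, had 68.6, 67.7 and 64.8 FPKM with siSirt7, against 52.6, 51.5 and 52.1 FPKM with siScrambled. All siSirt7 libraries exceeded all siScrambled ones (1.29-fold, log2 fold change 0.36 ± 0.03 SE, limma adjusted p = 0.00128; plus strand of chr7:110627661-110629820). Both calls held in every alternative run.

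Bnip3, a mitophagy receptor of the outer mitochondrial membrane, had 46.1, 51.3 and 46.1 FPKM with siSirt7, against 36.7, 40.6 and 38.9 FPKM with siScrambled. Again the groups were separate (1.24-fold higher with siSirt7, log2 fold change 0.30 ± 0.06 SE, limma adjusted p = 0.0158; minus strand of chr7:138890836-138909506), and without siScrambled library 1 the adjusted p was 0.0508. Its close relative Bnip3l, outside the 36, also rose (41.9 ± 1.09 FPKM with siSirt7 and 34.7 ± 3.10 FPKM with siScrambled, adjusted p = 0.0352). Ddit4, which encodes an inhibitor of mTOR signalling, had 8.90, 10.3 and 8.67 FPKM with siSirt7, against 13.5, 13 and 13.2 FPKM with siScrambled. It was the only one of the 13 that fell, with no overlap (1.43-fold lower with siSirt7, log2 fold change -0.47 ± 0.07 SE, limma adjusted p = 0.006; minus strand of chr10:59949669-59951834).

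Vegfa, the vascular endothelial growth factor, had 55.3, 57.6 and 54.9 FPKM with siSirt7, against 46.6, 49.1 and 45.1 FPKM with siScrambled. All siSirt7 values were the higher ones (1.19-fold higher with siSirt7, log2 fold change 0.25 ± 0.04 SE, limma adjusted p = 0.00948; minus strand of chr17:46016993-46032369). No single Vegfa transcript was called. Vegfa-201, which lacks both of the alternative exons of 132 and 72 bases, had 42.3, 39.2 and 42.8 FPKM with siSirt7 and 37.4, 39.9 and 35.5 FPKM with siScrambled (log2 fold change 0.14, adjusted p = 0.248). Vegfa-202, which has the exon of 132 bases, had 9.08, 13.5 and 7.35 FPKM with siSirt7, against 5.64, 4.45 and 5.22 FPKM with siScrambled (log2 fold change 0.81, adjusted p = 0.0957). Its share of the listed Vegfa transcripts was 16.4, 23.5 and 13.4% with siSirt7 and 12.1, 9.07 and 11.6% with siScrambled, without overlap (exact two-sided permutation p = 0.1, 0.254 adjusted over 33 shares). Vegfa-207, with both exons, averaged 4.51 ± 0.56 FPKM with siSirt7 and 4.22 ± 0.61 FPKM with siScrambled.

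The remaining targets did not pass. Mxi1, a repressor that opposes Myc, had 5.08, 4.76 and 4.89 FPKM with siSirt7 and 4.22, 4.50 and 4.45 FPKM with siScrambled, without overlap (log2 fold change 0.13, adjusted p = 0.20). Higd1a, a mitochondrial inner membrane protein, averaged 33.3 ± 2.41 FPKM with siSirt7 and 33.5 ± 1.27 FPKM with siScrambled (log2 fold change -0.01, interval -0.16 to 0.14). Ankrd37, usually a sensitive hypoxia marker, had 2.34, 1.12 and 0.77 FPKM with siSirt7 and 0.75, 2.49 and 0.76 FPKM with siScrambled, 1 high library in each group (log2 fold change 0.07, interval -0.79 to 0.94). In total 6 of the 13 HIF system and other HIF target members rose (46.2%, against 12.7% of all genes) and 1 fell (7.69%, against 12.5%), and their median on the log2 scale was 0.13.

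**Figure D4:**
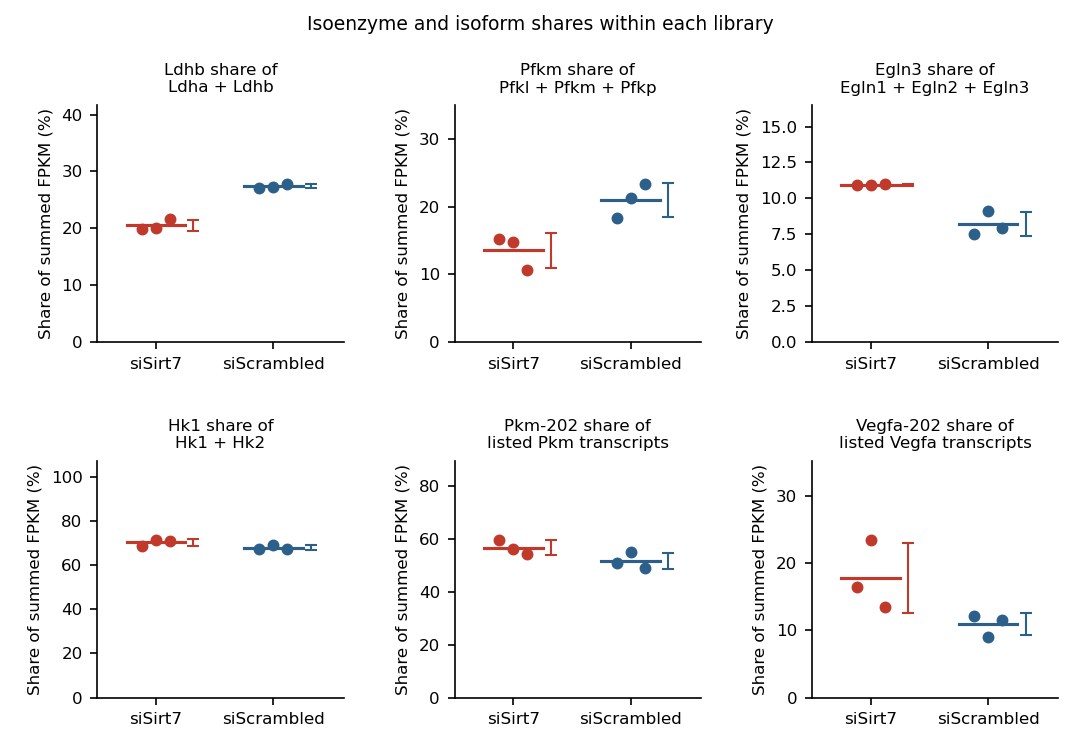
Share of summed FPKM held by 1 isoenzyme or transcript in each library (%), with points for libraries, horizontal lines for means and bars for SD (n = 3 each), siSirt7 left of siScrambled. The shares of Ldhb (19.9 to 21.7% with siSirt7 and 27.1 to 27.8% with siScrambled), Pfkm, Egln3 and Vegfa-202 do not overlap between the groups, while those of Hk1 and Pkm-202 do.

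Most of the gene sums rest on more than 1 listed transcript: the 36 genes had 91, of which 69 passed the same filter, and 16 genes had a single one. Over single transcripts 11 of the 69 were called higher and 2 lower; of the 17414 transcripts tested 8.99% were called, 4.68% higher and 4.31% lower. In single libraries the estimates moved from one transcript of a gene to another. Gapdh-201 was listed at 0.00 FPKM in siSirt7 libraries 1 and 3 and siScrambled libraries 2 and 3, and at 157.9 FPKM in siSirt7 library 2 and 138.2 FPKM in siScrambled library 1. Ldha-201 had 92 to 111.1 FPKM in 5 libraries and 9.81 FPKM in siScrambled library 3, where Ldha-210 had 101.9 FPKM.

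The DNA core that HIF binds contains the letters ACGTG or GCGTG, and the promoter windows of the genes were searched for them. RefSeq windows of 300 bases (250 before and 50 after an annotated start, GRCm38.p6) were at hand for 35 of the 36 genes, some with several starts (1.49 windows a gene, against 1.28 for the tested genes with a window). ACGTG on either strand was in at least 1 window of 24 of the 35 genes (68.6%), against 2551 of 8495 tested genes and 21.8% of all 27025 genes of that source. By window, it was in 53.8% of 52 windows of these genes and 25.8% of those of tested genes. ACGTG or GCGTG was in 31 of the 35 (88.6%, against 69.5% of tested genes and 46.7% of all), and CACGTG, which contains ACGTG and is also the binding site of Myc-type factors, in 7 of the 35 (20.0%, against 12.3% and 8.09%). Many of these genes were listed because they are known HIF targets, so these shares describe the choice of genes and not a response.

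The share with ACGTG was no higher among the risers. It was in 7 of the 12 risers with a window (58.3%), 1 of the 2 that fell and 16 of the 21 others (76.2%). A match says only that the letters are there. One site from each called gene that has ACGTG is printed, because these are the promoters in which letters and response can be set side by side; the core is in capitals, read 5′ to 3′ on the strand named.
Aldoa, chr7:126799366-126799390, plus: ccccgctaggACGTGactcgagcca
Pgam1, chr19:41911747-41911771, plus: ctccttgcttACGTGcgctccgtga
Pkm, chr9:59657142-59657166, minus: tgcggcgcggACGTGaccggatcgg
Hif1a, chr12:73907787-73907811, plus: gctgagagcaACGTGggctggggtg
Egln3, chr12:54204089-54204113, minus: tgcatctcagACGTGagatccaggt
Bnip3, chr7:138909600-138909624, plus: agcgtgtggcACGTGcggcgcgtgc
Vegfa, chr17:46025360-46025384, plus: ttgctctctgACGTGggcacgcact
Ddit4, chr10:59951943-59951967, minus: aacgttgcgaACGTGcgcccggtgc
Aldoa, Pgam1 and Pkm rose by 0.33, 0.32 and 0.40 on the log2 scale, Hif1a by 0.26, Egln3 by 0.35 and Bnip3 by 0.30. Ddit4, with the same core, fell by 0.47. The printed Bnip3 site lies within CACGTG, which Myc-type factors also bind. The Vegfa site belongs to an internal start window and lies within the exon of 197 bases (chr17:46025347-46025543), not at the first exon of the gene. The printed sites of Aldoa, Pkm and Hif1a also lie inside the spans given above for those genes, downstream of the outermost listed start. Ldha, with 5 occurrences of ACGTG counted over both strands, and Slc2a1, with 1, were not called, and Gpi1 and Tpi1 rose with neither ACGTG nor GCGTG in their windows. Most of the Ldha occurrences lie in CACGTG, which reads the same on both strands and was counted on each.

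The 3′ UTRs were searched for ATATGTA and TATGTAA, which overlap each other and which an earlier analysis of these data had picked out in genes lower with siSirt7, and for CGGAGAA, picked out in genes that were higher. Of the 36 genes, 32 had a 3′ UTR matched to the GENCODE vM21 annotation, and 5 of them held ATATGTA or TATGTAA (15.6%, against 23.0% of 9596 tested genes with a matched 3′ UTR). These were Hk2, Pfkfb3, Vegfa, Vhl and Higd1a. Neither Ldhb nor Ddit4, the genes that fell, held either word, and Vegfa was the only one of 11 risers with a matched 3′ UTR that did. Its site is shown as the single overlap of these words with a called gene among the 36, with ATATGTA in capitals.
Vegfa-201: tgttttttATATGTAaaaacaaa
CGGAGAA was in none of the 32, against 2.20% of the tested genes. The 95 tested pathway genes outside the 36, described below, differed from the members in ATATGTA or TATGTAA. With a matched 3′ UTR, 8 of 15 called lower held either word (53.3%). Among those called higher it was 4 of 18 (22.2%), and among those not called 13 of 50 (26.0%). The words were picked from genes lower in these same data, so these shares are not independent of that choice.

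Beyond the 36 genes, 95 genes of the same pathways were tested, and here rises and falls were almost equal in number: 20 were called higher and 18 lower (40.0% in either direction, against 25.2% of all genes), and their median was 0.01 on the log2 scale. Among 33 further genes of glycolysis, pyruvate and glycogen, 7 rose (21.2%, against 12.7% of all genes) and 6 fell (18.2%, against 12.5%). Gbe1, the glycogen branching enzyme, had 13.1, 15.0 and 15.1 FPKM with siSirt7, against 5.32, 5.11 and 5.61 FPKM with siScrambled. It was 2.69-fold higher with siSirt7 (log2 fold change 1.28, limma adjusted p = 0.000258). Pygl, the liver-type glycogen phosphorylase, averaged 7.16 ± 0.38 FPKM with siSirt7 and 4.23 ± 0.44 FPKM with siScrambled (adjusted p = 0.00371). Pgm2, a phosphoglucomutase, averaged 39.0 ± 0.23 FPKM with siSirt7 and 28.9 ± 1.43 FPKM with siScrambled (log2 fold change 0.42, adjusted p = 0.00188).

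Pyruvate entry into mitochondria had members on both sides. Pdha1, the catalytic alpha subunit of pyruvate dehydrogenase, had 119.6, 126.9 and 123.1 FPKM with siSirt7, against 96.4, 93.1 and 94.7 FPKM with siScrambled (1.30-fold higher with siSirt7, log2 fold change 0.38, limma adjusted p = 0.000966). Pdk4, a kinase that inactivates that enzyme, had 5.49, 5.55 and 5.39 FPKM with siSirt7, against 2.94, 2.88 and 3.40 FPKM with siScrambled (log2 fold change 0.67, adjusted p = 0.00237). Both rose without overlap between the groups. The sister kinases Pdk2 and Pdk3 were called lower. Pdk2 averaged 5.49 ± 0.45 FPKM with siSirt7 and 6.96 ± 0.26 FPKM with siScrambled (limma adjusted p = 0.0344). Pdk3, the most abundant of these kinases, averaged 26.5 ± 1.58 FPKM with siSirt7 and 30.3 ± 0.59 FPKM with siScrambled (limma adjusted p = 0.0482). Dld, the dihydrolipoamide dehydrogenase subunit of the complex, averaged 41.5 ± 1.40 FPKM with siSirt7 and 57.7 ± 0.84 FPKM with siScrambled (log2 fold change -0.46, adjusted p = 0.0007), and Mpc1, a subunit of the mitochondrial pyruvate carrier, 15.5 ± 2.60 FPKM with siSirt7 and 24 ± 0.59 FPKM with siScrambled (log2 fold change -0.61, adjusted p = 0.0131). For the most abundant Mpc1 transcript by itself the call was lost (log2 fold change -0.72, adjusted p = 0.147). Gpd1l, a glycerol 3-phosphate dehydrogenase, had the greatest fall on this list, with 2.70, 2.50 and 2.15 FPKM with siSirt7 against 6.60, 7.26 and 6.86 FPKM with siScrambled (2.82-fold lower with siSirt7, log2 fold change -1.20, adjusted p = 0.00048). Pgam2, the muscle-type mutase, averaged 0.80 ± 0.17 FPKM with siSirt7 and 1.84 ± 0.37 FPKM with siScrambled (log2 fold change -0.65, adjusted p = 0.0176). The Pgam2 call was lost without siSirt7 library 1 (adjusted p = 0.0542) or 2 (0.0578) and without siScrambled library 2 (0.0578) or 3 (0.0546). Its only listed transcript has the same values, and was not called when tested among the single transcripts (limma adjusted p = 0.0825).

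Of 48 further HIF targets, 12 rose and 10 fell, which is 45.8% called in either direction against 25.2% of all genes (12.7% higher and 12.5% lower). Hmox1, the inducible heme oxygenase and also a target of NRF2, had 265.2, 246.5 and 249.7 FPKM with siSirt7, against 56.8, 62.1 and 55.3 FPKM with siScrambled (4.37-fold higher with siSirt7, log2 fold change 2.11, limma adjusted p = 4.1e-05). Mt1, a metallothionein that metals also induce, averaged 297.8 ± 31.7 FPKM with siSirt7 and 128.4 ± 18.5 FPKM with siScrambled (log2 fold change 1.21, adjusted p = 0.00169). Igfbp3, which binds insulin-like growth factors, averaged 110.9 ± 8.29 FPKM with siSirt7 and 62.5 ± 1.36 FPKM with siScrambled (log2 fold change 0.81, adjusted p = 0.000431). Bhlhe40, a transcriptional repressor, averaged 34.1 ± 0.66 FPKM with siSirt7 and 22.2 ± 1.06 FPKM with siScrambled (log2 fold change 0.60, adjusted p = 0.000652). All 4 had no overlap between the groups.

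The targets that fell include Lox, the collagen and elastin crosslinking enzyme, with 498.7, 526.8 and 528.2 FPKM with siSirt7 against 777.8, 799.2 and 770.4 FPKM with siScrambled (1.51-fold lower with siSirt7, log2 fold change -0.59, limma adjusted p = 0.000214). Insig2, which retains the sterol sensor in the endoplasmic reticulum, averaged 5.33 ± 0.71 FPKM with siSirt7 and 15.8 ± 1.20 FPKM with siScrambled (log2 fold change -1.41, adjusted p = 0.000485). Trf, transferrin, averaged 40.9 ± 4.21 FPKM with siSirt7 and 66.6 ± 2.41 FPKM with siScrambled (log2 fold change -0.69, adjusted p = 0.00192), and Edn1, the precursor of the vasoconstrictor endothelin, 3.98 ± 0.57 FPKM with siSirt7 and 7.01 ± 0.22 FPKM with siScrambled (log2 fold change -0.69, adjusted p = 0.0044).

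**Figure D5:**
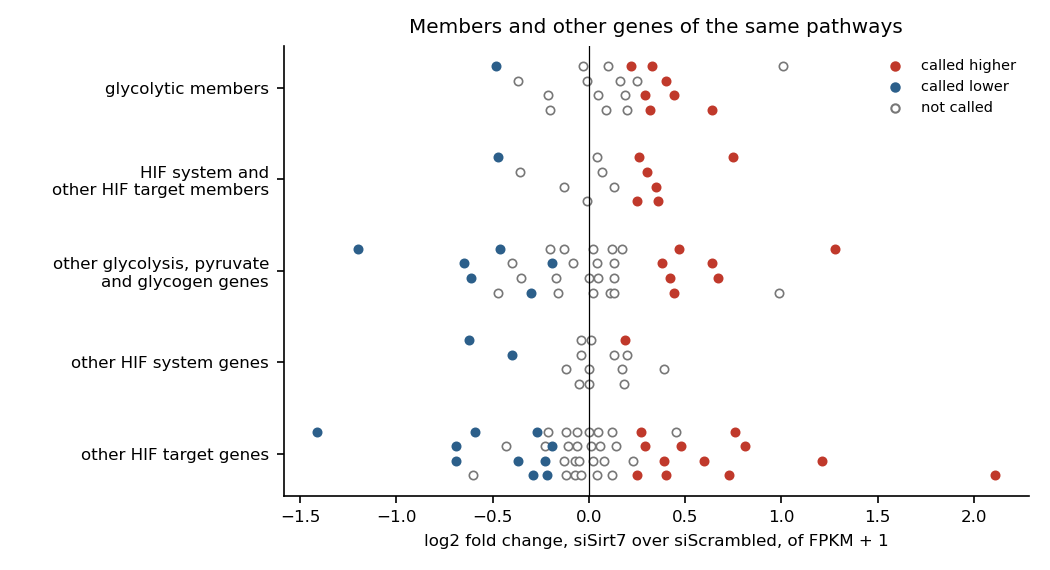
Log2 fold change (siSirt7 over siScrambled, FPKM + 1) of the tested genes on 5 lists, the glycolytic and HIF members and the other genes of the same pathways, 1 point a gene, filled where called. The called members lie mostly right of 0 (13 higher, 2 lower), the called genes of the other lists on both sides (20 higher, 18 lower), from Insig2 at -1.41 to Hmox1 at 2.11.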

How the data were processed

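RNA of 6 libraries of primary mouse VSMCs was sequenced. The authors aligned reads with HISAT2 to GRCm38 (mm10), per the submitters' processing notes, and the deposited values are FPKM, 1 per transcript and library; how FPKM was estimated, from which annotation, and how reads shared by similar genes were treated is not stated. Every listed transcript has a mean of at least 0.5 FPKM in 1 or both groups, so genes lower than that were not analysed here. Low FPKM values were searched for steps of whole reads over many step sizes, and at most 33.3% lay within 0.1 read of a whole number. By chance 20% would for 1 fixed step size. The chance level for the best of many was not computed, so the search cannot decide. Depth and counting error are unknown.

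Transcripts were summed to genes by identifier. limma 3.58.1 (R 4.3.3, trend and robust options on) was fitted to log2(FPKM + 1) of the 10854 genes that averaged 1 FPKM or more, without rescaling, siSirt7 over siScrambled, two-sided, without covariates, with Benjamini-Hochberg adjustment over all tested genes and a threshold of 0.05; the script was tested on simulated data. Shares were computed within each library and compared by an exact permutation test (two-sided, 3 libraries against 3). Single transcripts were tested in the same way as genes. Other steps and plots used Python 3.11.15 (pandas 2.3.3, numpy 2.4.6, matplotlib 3.10.9, scipy 1.17.1). Of the transcripts, 20545 (88.4%) had the coordinates of the same transcript in GENCODE vM21, and exons and 3′ UTRs were read only for those. Promoter windows are RefSeq's (GRCm38.p6).

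Titles gave the groups; a misspelled control siRNA there was taken for the scrambled one. Over all tested genes, same-numbered libraries did not deviate together (correlations of 0.00682, 0.0329 and -0.0146). The labels do not say whether the numbers pair libraries, and these correlations cannot exclude it. For Eno1 the replicate block lowered the SE from 0.12 to 0.03 (limma adjusted p = 0.00917). The members and lists were chosen with earlier results of these data known. Values in every library are given for each called member and for the highest member of each role, and, of the other pathway genes, up to 4 risers and 4 fallers per list with the smallest adjusted p were named. Pygl, Pdk2, Pdk3, Bnip3l, Arnt, Hif1an and Eno1b lie outside that rule and were named after their values were seen. Alternatives changed the scaling (quantile normalization or median-of-ratios scaling), the filter (none, or a mean of 5 FPKM), the pseudocount (0.1 or 0.5), the trend and robust options (off), the libraries (each left out, or a replicate block) and the gene value (the most abundant transcript).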

Additional observations from a re-analysis of the deposited data

How the results depend on the processing

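No called member changed sign in any alternative, and 10 of the 15 called kept their call in all of them; Tpi1, Eno1, Egln3, Vegfa and Bnip3 lost it in at least 1. Of all genes, 1380 were called higher and 1356 lower at the main setting. With 1 library left out these were 947 to 1106 and 900 to 1111 (900 without siScrambled library 2). The replicate block gave 946 and 981. With the block 12 members were higher and 2 lower, Egln3 losing its call (limma adjusted p = 0.0631). Deviations of same-numbered libraries from their group means did not correlate over all tested genes, which cannot exclude pairing. With 1 library left out, 5 to 8 glycolytic members were higher and 1 to 2 lower (2 without siSirt7 library 1), 4 to 6 HIF members higher and 1 to 2 lower (2 without siScrambled library 2), and 15 to 18 other pathway genes higher and 10 to 15 lower, with 10 lower without siScrambled library 2 and 11 without siScrambled library 3 or siSirt7 library 2; the left-out fits have fewer libraries. For the phosphofructokinase, lactate dehydrogenase and transporter shares, taking only the most abundant transcript gave differences of 5.69 percentage points for Pfkl (-4.21 for the sums), -0.428 for Pfkp (11.7), 24.4 for Ldha (6.82) and -14.1 for Slc16a1 (1.99).

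Signs of members that were not called turned as follows. Slc2a1 was at 0.04 without siScrambled library 1 and 0.11 without siSirt7 library 2, within -0.14 to 0.11 on the log2 scale with 1 library left out, and Hk2 at 0.01 without siScrambled library 2 and 0.00 without siSirt7 library 2. Pfkfb3 was at -0.02 without siScrambled library 3, -0.29 without siSirt7 library 1 and -0.12 without siSirt7 library 3, and at most 0.68. Ankrd37 was at -0.09 without siScrambled library 1 or 3 and -0.19 without siSirt7 library 1 (at most 0.40 with 1 left out), Higd1a at 0.02 without siScrambled library 3 and 0.04 without siSirt7 library 3 (at the lowest -0.06), and Ldha at -0.04 with quantile normalization. The causes were not tested. Depth is unknown, so genes near 1 FPKM such as Aldoc, Eno2, Pfkfb4 and Ankrd37 carry a counting error that cannot be given.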
